A study of Mus musculus with 4 samples.

Results

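The interferon-stimulated genes described here are 39 genes chosen by symbol, of which 37 were measured, out of 21649 genes and unnamed transcripts tested in ileal RNA of male C57BL/6J mice. They comprise 25 antiviral genes, 8 interferon-gamma GTPases of the Gbp and Irg families, 5 transcriptional regulators and the tryptophan-degrading enzyme Ido1. Each gene was represented by its brightest probe, named through the RefSeq accession that the array design gives it, and was kept where both arrays of at least 1 group had it well above background. No probe matched Mx1 or Mx2, both transcribed pseudogenes in the C57BL/6J gene table, and they are not analysed here. The tested probes of the 37 measured genes were well above background on all 4 arrays, so none of them was kept through one group alone.

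Total RNA was hybridised to 4 single-colour arrays with Cy3-labelled cRNA. The groups were 2 control samples and 2 samples from mice given metformin by mouth at 1000 mg/kg, all aged 10 weeks. No vehicle and no length of treatment is given in the labels, and separate animals are not stated either, so the p-values measure only how far these samples spread, which may be technical. The samples are ileal tissue of mixed cell types, in which a larger number of responding cells and more transcript per cell cannot be told apart.

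Type I interferons (alpha and beta) and type III interferons (lambda) act through Stat2 and Irf9 on the interferon-stimulated response element of antiviral genes. Type II interferon (gamma), a product of T and natural killer cells, acts through the gamma-activated site and induces Irf1, which in turn acts on genes such as those of the Gbp and Irg GTPases. In the small intestine the epithelium responds chiefly to lambda, and cells of the lamina propria to the type I interferons.

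Promoter sequences were available from RefSeq (GRCm38.p6) for 28 of the 39 genes, as windows of 300 bases that run from 250 before to 50 after a gene's start. They were searched on both strands for the core of the response element, GAAANNGAAA, called ISRE here, and for the gamma-activated site, TTCNNNGAA, called GAS here, which reads the same on both strands. The letters of the ISRE core stood in a window of 10 of 17 antiviral genes and of 6 of 6 GTPases, against 3.99% of 27025 genes. Those of the GAS stood in a window of 4 of 17 antiviral genes and 3 of 6 GTPases, against 9.55% of genes. Of the regulators, 1 of 5 had the ISRE core (Stat2) and 2 of 5 had the GAS (Irf1 and Irf8). Matches are descriptions of these letters in these windows. Because the antiviral genes and the GTPases are set against each other below, 4 windows of each are shown, those of smallest unadjusted p in the comparison among genes with a match. Each is written 5′ to 3′ on the strand of the gene, with matches to either motif in capitals. The capitals of Gbp2, Gbp3, Ifih1, Ddx58, Isg15 and Irgm1 are ISRE cores, on either strand and in part overlapping, that of Ifit2 is a GAS, and those of Gbp7 are 2 GAS and 1 ISRE core.
Gbp2 (chr3:142620413-142620712, plus strand): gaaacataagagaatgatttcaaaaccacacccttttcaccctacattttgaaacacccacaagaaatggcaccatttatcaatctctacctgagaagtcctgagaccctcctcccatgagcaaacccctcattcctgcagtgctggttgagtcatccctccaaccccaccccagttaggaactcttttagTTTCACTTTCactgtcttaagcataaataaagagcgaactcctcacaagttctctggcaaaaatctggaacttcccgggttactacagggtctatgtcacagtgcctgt
Irgm1 (chr11:48871371-48871670, minus strand): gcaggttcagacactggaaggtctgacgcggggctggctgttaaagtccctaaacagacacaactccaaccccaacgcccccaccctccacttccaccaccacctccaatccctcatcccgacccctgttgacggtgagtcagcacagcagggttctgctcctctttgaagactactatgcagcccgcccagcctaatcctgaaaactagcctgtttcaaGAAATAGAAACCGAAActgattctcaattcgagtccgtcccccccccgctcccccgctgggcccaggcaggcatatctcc
Gbp3 (chr3:142559794-142560093, plus strand): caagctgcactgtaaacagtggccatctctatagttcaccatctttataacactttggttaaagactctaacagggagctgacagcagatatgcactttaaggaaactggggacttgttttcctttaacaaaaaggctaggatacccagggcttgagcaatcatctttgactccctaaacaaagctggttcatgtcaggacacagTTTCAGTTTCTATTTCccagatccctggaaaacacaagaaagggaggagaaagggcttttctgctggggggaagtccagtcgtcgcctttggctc
Gbp7 (chr3:142530086-142530385, plus strand): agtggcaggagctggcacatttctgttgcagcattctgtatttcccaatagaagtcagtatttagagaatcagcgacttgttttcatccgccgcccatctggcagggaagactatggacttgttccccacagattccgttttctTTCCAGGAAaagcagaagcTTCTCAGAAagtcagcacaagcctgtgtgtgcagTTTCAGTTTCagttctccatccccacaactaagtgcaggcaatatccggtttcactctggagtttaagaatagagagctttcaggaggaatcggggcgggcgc
Ifit2 (chr19:34550444-34550743, plus strand): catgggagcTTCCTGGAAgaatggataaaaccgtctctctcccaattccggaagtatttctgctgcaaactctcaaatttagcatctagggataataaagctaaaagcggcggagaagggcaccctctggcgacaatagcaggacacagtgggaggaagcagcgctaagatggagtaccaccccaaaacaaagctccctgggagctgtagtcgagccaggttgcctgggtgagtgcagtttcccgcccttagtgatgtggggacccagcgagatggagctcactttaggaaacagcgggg
Ifih1 (chr2:62646206-62646505, minus strand): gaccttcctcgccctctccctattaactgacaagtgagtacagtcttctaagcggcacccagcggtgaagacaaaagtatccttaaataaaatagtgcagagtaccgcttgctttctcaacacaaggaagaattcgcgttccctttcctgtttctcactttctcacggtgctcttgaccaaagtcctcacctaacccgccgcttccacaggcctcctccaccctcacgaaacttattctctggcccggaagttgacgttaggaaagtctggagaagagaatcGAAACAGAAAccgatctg
Ddx58 (chr4:40239776-40240075, minus strand): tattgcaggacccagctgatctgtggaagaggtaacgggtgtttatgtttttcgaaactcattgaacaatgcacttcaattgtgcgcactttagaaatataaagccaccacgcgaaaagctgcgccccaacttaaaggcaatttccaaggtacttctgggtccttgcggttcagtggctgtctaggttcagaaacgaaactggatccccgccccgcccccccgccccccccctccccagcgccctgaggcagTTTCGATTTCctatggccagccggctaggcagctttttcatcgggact
Isg15 (chr4:156200769-156201068, minus strand): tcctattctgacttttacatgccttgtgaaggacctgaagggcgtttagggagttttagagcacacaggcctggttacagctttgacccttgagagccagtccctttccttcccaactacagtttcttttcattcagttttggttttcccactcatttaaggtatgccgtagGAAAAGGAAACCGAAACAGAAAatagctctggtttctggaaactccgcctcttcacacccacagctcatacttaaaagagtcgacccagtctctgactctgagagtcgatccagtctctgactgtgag

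The GTPase windows had their ISRE cores close to the gene's start, at -59 in Gbp2, at -30 and -24 in Irgm1, at -45 and -39 in Gbp3 and at -53 in Gbp7, counted to the first base of the match in the printed strand. Among the antiviral windows shown the cores lay at -78, -72 and -66 in Isg15 and after the start, at 3 and 33, in Ddx58 and Ifih1. The 17 measured genes with an ISRE core had a median log2 difference between metformin and control of 0.13, and the 11 with a window but no core one of 0.26. Their medians in metformin 1, relative to the control mean, were 0.75 and 0.80. For the GAS, the 9 genes with a match had a median difference of 0.13 and a median of 0.41 in metformin 1, beside 0.26 and 0.89 for the 19 without. The 17 genes with an ISRE core include all 6 GTPases that have a window, and the 11 without a core include none. The ISRE core and gene class therefore cannot be told apart in these medians. All these medians are descriptions, and no test was made between the sets.

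Before the results, some features of the samples need to be stated. The arrays shared 1 slide and 1 scan. Controls occupied positions 1 and 2 and metformin samples 3 and 4, so position and treatment cannot be told apart. For the 8 distal intestine genes the median in metformin 1 was -0.91, relative to the control mean, beside 0.27 and -0.27 for the controls and 0.07 for metformin 2. Fabp6, whose product carries bile acids in ileal cells, read 4.16 in metformin 1, whereas metformin 2 read 8.69 and the controls 8.94 and 8.29. Cubn, a receptor for vitamin B12 bound to intrinsic factor, did not share this order and was highest in metformin 1, at 6.59 beside 6.54 and 5.90 in controls and 6.27 in metformin 2. All levels given here are log2 values after subtracting the 75th percentile of the same array. For proximal intestine genes the median in metformin 1 was 2.33, relative to the control mean. The corresponding medians were 0.37 and -0.37 for the controls and -0.68 for metformin 2. Smooth muscle markers had a median of 2.34 in control 1 and between -3.45 and -2.34 in the other samples. Values below are therefore mostly given by sample, and the medians of the interferon-stimulated genes also with samples left out.

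No interferon-stimulated gene passed the comparison of metformin with control after adjustment for multiple testing (limma, Benjamini-Hochberg, smallest adjusted p = 0.999999). Across all features tested, 0.0% passed as well. Ido1 alone of the 37 genes passed 0.05 before adjustment, with a higher level in the metformin samples, where 0.346% of all features were higher and 1.26% lower at that level. In 4 of the 37 genes both metformin samples lay above both controls (Zbp1, Oasl1, Irf8 and Ido1), against 12.3% of all features. In 2 both lay below (Ifit2 and Gbp2), against 8.57% of all features. These shares are close to or under the background. The median standard error of a difference was 0.54 on the log2 scale for these genes, against 0.37 over all features, and the median half-width of their 95% intervals was 1.45. With 2 samples a group the adjusted test had little power. Large changes put into simulated data did not pass it either, so the lack of calls does not show that these genes were unaltered.

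In most of these genes, as in most features, the samples of at least 1 group differed from each other more than the groups did. The median gap between the 2 controls was 0.70 and that between the 2 metformin samples 1.08 on the log2 scale, whatever the direction. The median difference between the groups, in which opposite directions cancel, was 0.22. Over all features these medians were 0.44, 0.49 and 0.06. In 3 of the 37 genes (Oasl1, Zbp1 and Ido1) the difference between groups was larger than the gap within each group, against 12.6% of all features. Metformin 1 had the highest of the 4 values in 29 of the 37 genes, against 38.5% of all features, and the lowest in 0 of them, against 28.4%. The lowest value was that of metformin 2 in 19 genes (16.7% of all features) and that of control 2 in 13 (36.9%). Control 1 was highest in 6 genes (21.8% of all features) and lowest in 5 (18.0%), and control 2 and metformin 2 were each highest in 1 gene (19.8% of all features for each).

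**Figure D1:**
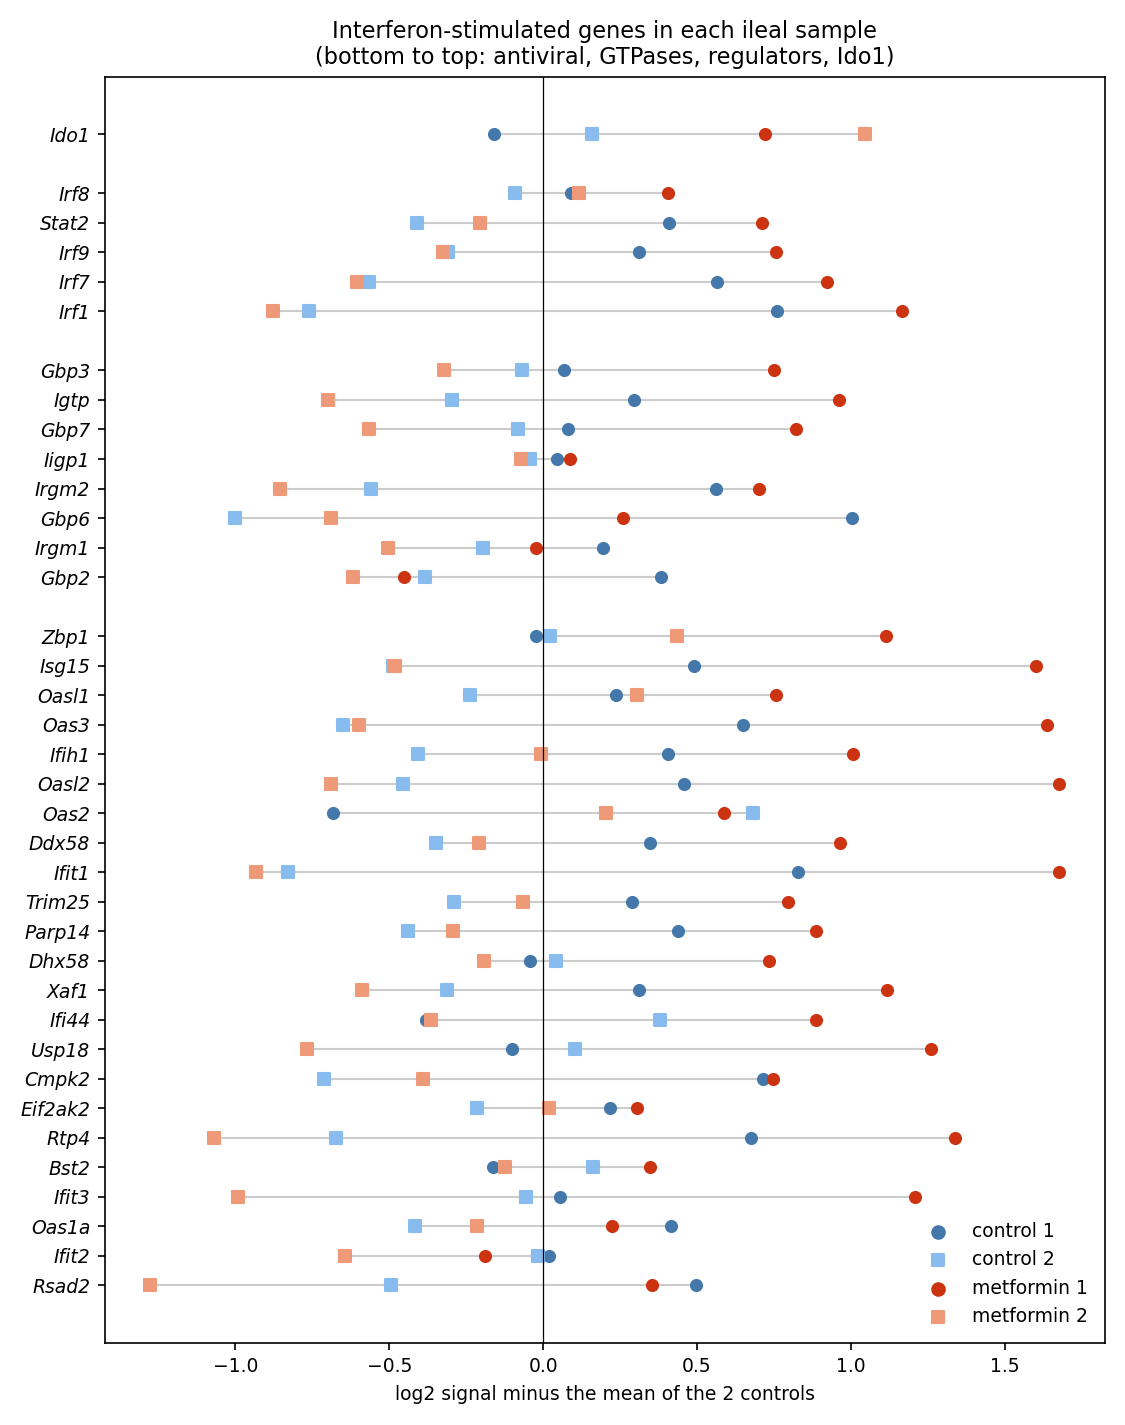
Level of each measured interferon-stimulated gene in the 4 ileal samples, as log2 signal minus the mean of the 2 controls (horizontal axis), with 1 row a gene; circles are samples numbered 1 and squares samples numbered 2, blue for control and red for metformin. Metformin 1 is the rightmost point in 29 of the 37 rows, and in most rows the points of control 2 and metformin 2 lie left of zero.

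Among the genes of the response's effectors, Isg15 encodes a ubiquitin-like protein that is attached to other proteins and Usp18 the protease that removes it. Isg15 read 2.87 and 1.89 in the controls and 3.98 and 1.90 with metformin. Metformin 1 was high and metformin 2 was level with control 2, so the difference of 0.56 (SE 0.82) came from 1 sample. A second Isg15 probe had the same order at its upper end, with -0.94 and -1.87 in controls and 0.29 and -1.95 with metformin. Usp18 had -0.55 in metformin 1, -2.58 in metformin 2 and -1.92 and -1.71 in the controls, the highest and the lowest of the 4 values both falling in the metformin group.

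The 2′-5′-oligoadenylate synthetases make the second messenger that activates RNase L, and the Oasl proteins are related to them. Oasl1 was 1 of the 2 antiviral genes without overlap in the upward direction, with 4.64 and 4.16 in controls and 5.16 and 4.71 with metformin. Metformin 2 exceeded control 1 by little, the difference was 0.53 (SE 0.35, 95% interval -0.41 to 1.47), and the groups overlapped after quantile normalization. Oas3 read -2.02 and -3.32 in controls and -1.03 and -3.26 with metformin, a difference of 0.52 (SE 0.91). In Oas3 metformin 1 lay above both controls, while metformin 2 was nearly level with control 2. Oas1a, whose probe can also detect other members of its family, read 3.74 and 2.91 in controls and 3.55 and 3.11 with metformin. Its difference was 0.00 with an interval of -1.11 to 1.12, and its sign was negative with normexp background correction, with quantile normalization and in the unscaled deposited table. Oas2 was the only measured gene whose highest value was that of control 2, at -0.64, against -2.01 in control 1 and -0.73 and -1.12 with metformin.

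Of the sensors of foreign nucleic acid, Zbp1, which binds left-handed double helices and can start necroptosis, had the largest difference of the antiviral genes. It read -1.05 and -1.01 in controls and 0.09 and -0.59 with metformin, both metformin samples lying above both controls. The difference was 0.78 (SE 0.36, unadjusted p = 0.089 in limma's fit, adjusted p = 0.999999). A second Zbp1 probe overlapped between the groups, with -3.19 and -2.53 in controls and -2.06 and -2.98 with metformin, so the separation held for 1 of 2 probes. Ifih1, the receptor for long double-stranded RNA also known as Mda5, read 2.40 and 1.59 in controls and 2.998 and 1.99 with metformin, a difference of 0.50 (SE 0.52). Ddx58, which encodes the related receptor RIG-I, read 2.20 and 1.499 in controls and 2.81 and 1.64 with metformin. Trim25, a ubiquitin ligase of the RIG-I pathway, read 5.34 and 4.76 in controls and 5.85 and 4.98 with metformin. In Ifih1, Ddx58 and Trim25 the order of the samples was the same, metformin 1 first, then control 1, metformin 2 and control 2. Dhx58, the third receptor of that family, had a difference of 0.27 (SE 0.42).

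The Ifit proteins bind viral RNA and block its translation. Ifit1 read 0.09 and -1.57 in controls and 0.93 and -1.68 with metformin, and its values ranged over 2.61, the widest of the 37 genes. Ifit3 read -1.04 and -1.14 in controls and 0.12 and -2.08 with metformin, so that the controls lay close together between the metformin samples. The probes of Ifit1 and Ifit3 can hybridise to near-identical copies of these genes. Ifit2 read -4.39 and -4.42 in controls and -4.59 and -5.05 with metformin, both metformin samples being lower. The difference of -0.42 (SE 0.31) was -0.06 with normexp background correction and -0.19 in the deposited table after scaling, and the groups overlapped in both.

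The other antiviral effectors lay within the same limits. Rsad2, or viperin, which makes a chain-terminating nucleotide, had the lowest difference, -0.46 (SE 0.70), with -0.89 and -1.88 in controls and -1.03 and -2.67 with metformin. Its genomic neighbour Cmpk2, a mitochondrial nucleotide kinase, differed by 0.18 (SE 0.67). Rtp4 read 2.17 and 0.82 in controls and 2.83 and 0.43 with metformin, and Oasl2 read 1.71 and 0.80 in controls and 2.93 and 0.56 with metformin, both with metformin samples on either side of the controls. Bst2, or tetherin, which holds budding virions at the cell surface, and Eif2ak2, the RNA-activated kinase PKR, ranged over no more than 0.52, with differences of 0.11 (SE 0.34) and 0.16 (SE 0.32). The remaining genes Ifi44, Xaf1 and Parp14 differed by 0.26, 0.26 and 0.30. Over the 23 measured antiviral genes the differences ran from -0.46 to 0.78 with a median of 0.27, and 21 of the 23 were above 0, where 57.6% of all features were above 0 and their median was 0.06. The antiviral median was -0.36 without metformin 1 and 0.89 without metformin 2. It was 0.65 without control 1 and 0.04 without control 2.

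Of the regulators, Stat2, Irf9, Irf7 and Irf1 behaved alike, whereas Irf8 ranged less widely, over 0.50. Stat2 and Irf9, which act at the ISRE, read 1.65 and 0.83 and 1.79 and 1.17 in the controls. With metformin Stat2 read 1.95 and 1.04 and Irf9 2.24 and 1.15. In both genes the first sample of each group was high and the second low, and the differences were 0.25 (SE 0.49) and 0.22 (SE 0.50). Irf7, which amplifies the type I response, read 0.60 and -0.53 in controls and 0.96 and -0.57 with metformin. Irf1, the main mediator of the gamma response, read 4.70 and 3.17 in controls and 5.10 and 3.06 with metformin, a gap of 1.52 between controls and of 2.04 between metformin samples beside a difference of 0.14 (SE 0.90). Irf8, a factor of myeloid and B cells as well as an induced gene, read 3.19 and 3.002 in controls and 3.50 and 3.21 with metformin. Its groups did not overlap, but control 1 and metformin 2 were almost level, the difference was 0.26 (SE 0.30) and the groups overlapped after quantile normalization. The median difference of the 5 regulators was 0.22. This median was -0.33 without metformin 1, 0.76 without metformin 2, 0.66 without control 1 and -0.16 without control 2.

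Some of the interferon-gamma GTPases disrupt the membranes around intracellular bacteria and parasites. The Gbp proteins are large GTPases, and the Irg proteins, among them Irgm1, Irgm2, Igtp (also named Irgm3) and Iigp1, are smaller GTPases. Probes of both families can detect near-identical members, so single values are uncertain as to the gene. Of the 8, 4 had differences above 0 and 4 below 0, with a median of -0.03 and a range from -0.54 to 0.21.

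Gbp2 read -1.70 and -2.47 in controls and -2.54 and -2.70 with metformin. It was the only GTPase without overlap, at a difference of -0.54 (SE 0.38), although control 2 lay only just above metformin 1, and the groups overlapped with normexp background correction and in the scaled deposited table. Gbp3 read -2.22 and -2.36 in controls and -1.54 and -2.61 with metformin, and Gbp7 -4.80 and -4.97 in controls and -4.06 and -5.45 with metformin. In both the controls lay between the metformin samples, and the differences were 0.21 (SE 0.45) and 0.13 (SE 0.54). Gbp6 read 1.09 and -0.91 in controls and 0.35 and -0.60 with metformin. The controls of Gbp6 were the widest apart of the 37 genes, by 2.01, around a difference of -0.21 (SE 0.79).

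Igtp read -0.35 and -0.94 in controls and 0.32 and -1.34 with metformin, and Irgm2 -0.47 and -1.59 in controls and -0.33 and -1.89 with metformin. Both were high in the samples numbered 1, with differences of 0.13 (SE 0.65) and -0.08 (SE 0.70). Irgm1, which guards host membranes and is required for resistance to mycobacteria, read 0.34 and -0.05 in controls and 0.12 and -0.36 with metformin, a difference of -0.26 (SE 0.34), and its second probe differed by -0.25. Iigp1 read -1.48 and -1.56 in controls and -1.43 and -1.59 with metformin. It ranged over 0.16, the narrowest of the 37 genes, and its interval of -0.74 to 0.76 reflects the spread that the fit shares across features. Its second, dimmer probe differed by -0.40.

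Set side by side, the antiviral median exceeded the GTPase median by 0.31 in the difference between metformin and control. No test was made of this contrast, since the genes were chosen with results of these data known. Relative to the control mean, metformin 1 had an antiviral median of 0.89 and metformin 2 one of -0.36, beside 0.31 and -0.31 for controls 1 and 2. The corresponding GTPase medians were 0.48 and -0.59, beside 0.25 and -0.25. Both sets were thus high in the samples numbered 1 and low in those numbered 2. The antiviral median exceeded the GTPase median by 0.41 in metformin 1 and by 0.23 in metformin 2. It did so by 0.07 in control 1 and lay below it by a like amount in control 2. The 2 control values mirror each other by construction, since levels are taken relative to the control mean. Leaving out any of the 4 samples left the contrast between 0.23 and 0.41. The signs of the separate medians did depend on the samples: without metformin 1 both were negative (-0.36 and -0.59), and without metformin 2 both were positive (0.89 and 0.48). Only 6 of the 37 genes were above 0 without metformin 1, against 31 with it and 34 without metformin 2. That count was 31 without control 1 and 17 without control 2.

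**Figure D2:**
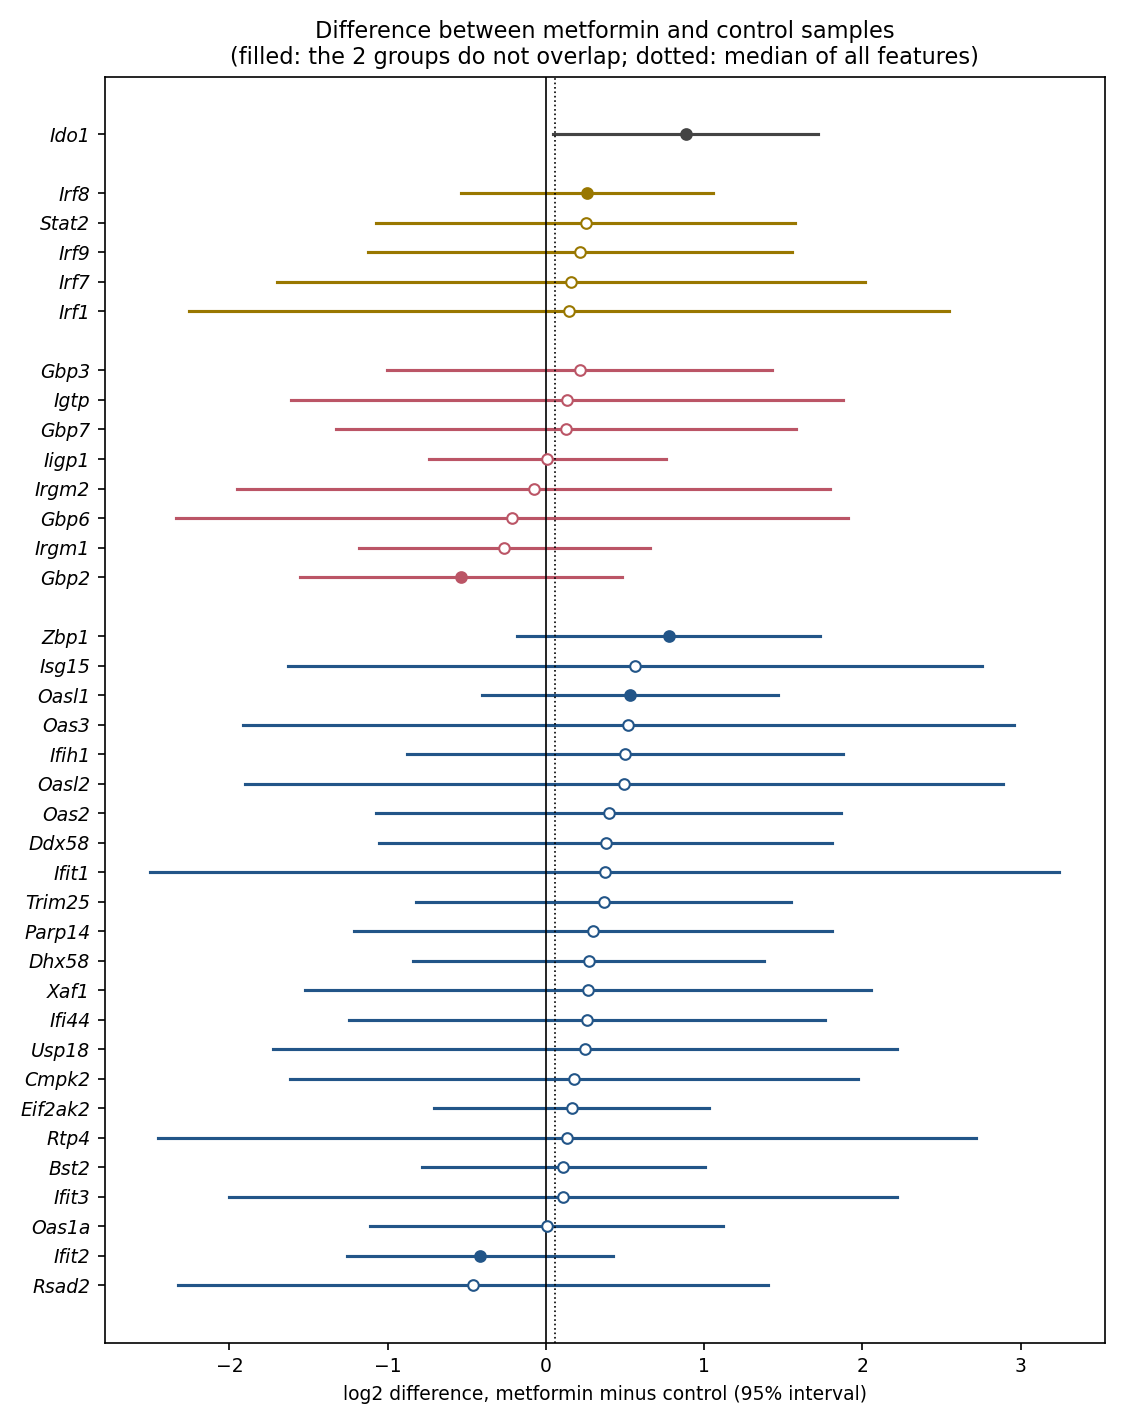
Difference between metformin and control for each measured gene on the log2 scale (horizontal axis), with limma's 95% interval as a line; blue marks antiviral genes, red GTPases, ochre regulators and grey Ido1, and filled points are genes whose groups do not overlap. The interval of Ido1 alone leaves out 0, before any adjustment, and antiviral points lie mostly right of the dotted median of all features (0.06) while the GTPases lie on both sides of it.

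Ido1, which starts the breakdown of tryptophan to kynurenine and is induced by interferon gamma, did not share the order of the other genes. It was the only one of the 37 genes that was highest in metformin 2, and it was lowest in control 1. Both metformin samples, at 0.46 and 0.78, were above both controls, at -0.42 and -0.11, and the difference of 0.88 (SE 0.31) was between 0.72 and 1.05 when any 1 sample was left out. It did not pass after adjustment over all features, and before adjustment it no longer passed 0.05 when any 1 of the samples was left out, in the unscaled deposited table or with no filter on dim probes.

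Genes that act before and beside these members are given by list. Of the interferons themselves, the probes of Ifng and Ifnb1 were not well above background on any array. Of 19 listed ligands 10 were measured, all dim, and their probes can hybridise to related family members. The lambda gene Ifnl3 read -3.43 and -3.28 in controls and -2.99 and -2.97 with metformin, a difference of 0.37 (SE 0.28). Of the 10 ligands 7 had differences above 0 and 3 below, down to -0.30, with a median of 0.16. Without overlap 6 were higher (12.3% of all features) and 1 lower (8.57%). Relative to the control mean, the ligand median was 0.24 in metformin 1 and 0.17 in metformin 2, beside 0.02 and -0.02 in the controls. The 37 interferon-stimulated genes had medians of 0.76 and -0.39 in metformin 1 and 2, so the ligands did not share their order. Ifna14, Ifnab and Ifna1 differed by 0.31, 0.29 and 0.25. All 11 listed receptor and proximal signalling genes had differences above 0 (57.6% of all features), with a median of 0.26, 4 of them without overlap (12.3%) and 0 at an unadjusted p under 0.05. Among these were the receptor subunit of lambda, Ifnlr1, with 2.30 and 2.15 in controls and 2.87 and 2.42 with metformin, and the kinase Jak1 at 0.34 (SE 0.29). Ifnar2, a receptor subunit of the type I interferons, differed by 0.75 (SE 0.50) but overlapped. Without metformin 1 the median of that list was 0.02.

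Genes that sense nucleic acids ahead of interferon had a median difference of 0.23, with 11 of 13 above 0 (57.6% of all features). The cytosolic DNA sensor Cgas went the other way, from -1.59 and -1.08 in controls to -2.43 and -1.69 with metformin, without overlap (difference -0.73, SE 0.41). Tlr7, Mavs and Irf5 differed by 0.42, 0.36 and 0.29. Negative regulators had 10 of 11 above 0, against the same 57.6% of all features (median 0.24). The feedback inhibitor Socs3 differed by 0.75 (SE 0.61), Ptpn6 and Adar by 0.33 each and Rnaseh2b by -0.30.

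Antiviral interferon-stimulated genes outside the 39 had 25 of 37 above 0 (57.6% of all features) and a median of 0.14, with 0 passing the adjusted test. One of them, Ifitm3, which keeps virions from fusing with endosomes, had an unadjusted p under 0.05 in the lower direction. It read -0.47 and -0.38 in controls and -1.57 and -1.38 with metformin, a difference of -1.05 (SE 0.28). Its relative Ifitm2 differed by -0.80 (SE 0.64), Ifi27l2a by -1.01 (SE 0.64) and Herc6 by 0.90 (SE 0.59). Ifitm3 is also expressed outside any interferon response in stromal and vessel cells. Fibroblast markers were lower with metformin in 10 of 10 genes (median -2.08), 8 at an unadjusted p under 0.05 in limma's fit (1.26% of all features). Endothelial markers were lower in 6 of 9 (median -1.07), 4 of them at an unadjusted p under 0.05 in limma's fit (1.26% of all features). Without overlap 4 were lower (8.57% of all features). Relative to the control mean, the endothelial median was -1.10 in metformin 1 and -0.19 in metformin 2, beside -0.19 and 0.19 in controls 1 and 2. Without metformin 1 the median endothelial difference was -0.19. Cdh5, Eng, Vwf and Cldn5 were nevertheless lower in both metformin samples than in both controls. The part of stromal and vessel cells in the Ifitm3 value was not tested.

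Other interferon-gamma GTPases had 5 of 10 above 0 and a median of 0.10, so that they too lay on both sides of 0. Gbp2b differed by 1.11 (SE 1.10), Gbp8 by 0.54, Ifi47 by 0.52 and Gm4951 by -0.86. Of the other targets of interferon gamma, 16 of 16 were above 0 (57.6% of all features), with a median of 0.35, and 6 were higher without overlap (12.3% of all features). Their difference from the GTPases was not tested. Ubd, a ubiquitin-like modifier that tags proteins for degradation, had an unadjusted p of 0.028, with -1.87 and -1.92 in controls and -0.29 and -1.07 with metformin (difference 1.21, SE 0.38). Cxcl9, Psmb8 and Tap2 differed by 0.83, 0.77 and 0.55. By sample, the median of these targets was 0.65 for metformin 1, 0.17 for metformin 2 and -0.01 and 0.01 for the controls.

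**Figure D3:**
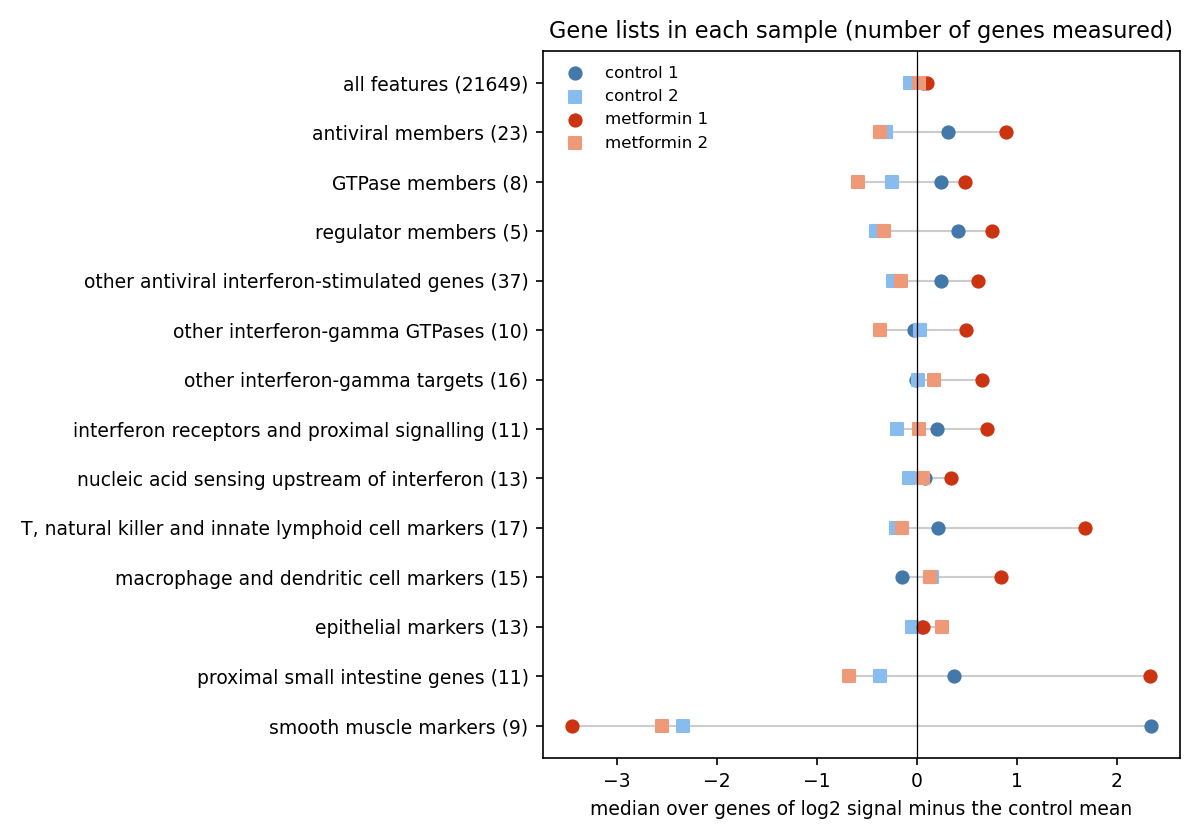
Median of each gene list in each of the 4 samples, as log2 signal minus the control mean (horizontal axis), with the number of genes measured in brackets; symbols and colours stand for the samples as in the legend. Metformin 1 is the highest sample in all 3 sets of interferon-stimulated genes and in the T cell and proximal intestine lists. It is also highest in other lists, among them the receptor genes and the other interferon-gamma targets, and over all features. Epithelial markers differ little.

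Markers of cells that make or answer interferon differed in how they lay across the samples. T, natural killer and innate lymphoid cell markers (17 of 22 measured) were above 0 in 17 of 17 (57.6% of all features). Of these, 16 were highest in metformin 1 (38.5% of all features). Metformin 1 had a median of 1.68 for these markers and metformin 2 one of -0.15, beside 0.21 and -0.21 for controls 1 and 2. Their signals, each divided by the 75th percentile of its array, summed to 18.9 to 38.4 in controls and 22.8 to 89.4 with metformin. Of the listed markers, Klrk1, Ncr1 and Eomes were not well above background on any array. Macrophage and dendritic cell markers (15 of 17 measured) had medians of -0.15 and 0.15 for the controls and 0.84 and 0.13 for the metformin samples, and a summed signal of 7.15 to 11.6 in controls and 9.37 to 11.6 with metformin, and Xcr1 was not well above background on any array. Metformin 1 was high in these markers too, but control 2 lay above control 1, the reverse of the antiviral genes. Plasmacytoid dendritic cell markers, a list that shares Bst2 with the genes described here, had medians between -0.16 and 0.35. B and plasma cell markers had medians of -0.25 and 0.25 for controls 1 and 2 and 0.54 and -0.06 for the metformin samples, the controls again in reverse order. Epithelial markers (13 of 13 measured) stayed between -0.05 and 0.26. Proximal small intestine genes had a summed signal of 244 to 427 in controls and 266 to 1252 with metformin. Metformin 1 stood first and control 1 second in the antiviral genes, the T cell markers and the proximal genes. The medians over all features had these samples in the same places, at 0.10 and 0.06, with metformin 2 at 0.02 and control 2 at -0.06. Control 2 lay above metformin 2 in the antiviral and proximal genes and below it in the T cell markers. The part of these cells and of intestinal region in the values of the interferon-stimulated genes was not tested.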

How the data were processed

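The 4 RNA samples, 2 a group, were hybridised to Agilent single-colour arrays. The deposited scanner files hold spot intensity on a linear scale from Agilent Feature Extraction 10.7.3.1, with background removed and spatial trends corrected array by array and no scaling between arrays, per the file headers. The authors' deposited series table, described as normalized, equals the raw median spot intensity for all 39030 probes with 1 spot and was used as an alternative only. Control spots and spots flagged as non-uniform or population outliers were left out, log2 spot values of a probe were averaged, and each array's 75th percentile was subtracted. Of 39429 probes, 27508 had 1 symbol through RefSeq accessions (GRCm38.p6) and 26441 were kept, well above background on both arrays of a group. The brightest probe of a gene was tested. Older symbols in the lists were updated through the table's synonyms.

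Groups were compared with limma 3.58.1 in R 4.3.3 (lmFit and eBayes, two-sided) on all 21649 features, with Benjamini-Hochberg adjustment at 0.05. The fit was tested on simulated data, where it returned the size of the changes put in but called none of them after adjustment. The genes, lists and tests were chosen with earlier results of these data known. Values in every sample were printed for GTPases, regulators, Ido1, antiviral genes without overlap and the 3 brightest and 3 most different of the rest. Further antiviral genes (Ddx58, Usp18, Ifit1, Ifit3, Rsad2, Rtp4, Oas2 and Oasl2) were added after their values were seen. Of the other lists up to 4 genes of smallest p were named, and Ifng, Ifnb1 and markers not above background were added. The array design's genome build (mm9) differs from that of the promoter table, so no probe positions are given. The number of arrays limits the precision, and no spot was saturated.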

Additional observations from a re-analysis of the deposited data

How the results depend on the processing

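No interferon-stimulated gene and no feature passed the adjusted test in the main analysis or in any of the 14 alternatives (normexp background correction, on the median spot signal because the mean signal is not in the files used, quantile normalization, median scaling, the deposited table as it stands and scaled, 2 other filters on dim probes, the mean of a gene's probes, a replicate block, trended robust variances and each sample left out). Since the adjusted test had little power with 2 samples a group, this says nothing of stability. Genes that passed 0.05 before adjustment numbered 0 to 4: none in the deposited table as it stands, without a filter or without either control or metformin 1, Isg15, Oas3, Oasl2 and Usp18 without metformin 2, Ido1 and Oasl1 with the block, and Ido1 alone elsewhere. The titles' numbers do not show that samples are paired. With them as a block (replicate block) 0 features and 0 of the 37 genes passed, the smallest adjusted p was 0.63, and features at an unadjusted p under 0.05 numbered 1566 in place of 347. Same-numbered samples deviated together (r = 0.56 across features).

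The count of genes without overlap was 4 higher and 2 lower. It was 2 higher with quantile normalization, which lost Irf8 and Oasl1, and 6 higher with median scaling, which added Eif2ak2 and Iigp1 and under which 26.4% of all features were higher without overlap. Lower genes numbered 0 with normexp correction and 0 in the scaled deposited table. In the deposited table as it stands, whose median over all features was -0.17 against 0.06, it was 1 higher and 4 lower, and 14 of 37 genes were above 0 in place of 31. Relative to each setting's own median over all features, 29 of 37 genes lay above it in both. With samples left out in turn, a group of 1 sample overlaps less often by construction: 4 to 30 genes were higher and 2 to 19 lower without overlap, beside 24.6% to 42.7% and 22.0% to 31.7% of all features, and 6 to 34 had differences above 0; without control 2 that count was 17. The share of all features above 0 was 57.6% in the main analysis, 71.1% with median scaling, 66.3% with normexp and 20.7% in the table as it stands.

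The antiviral median of 0.27 ran from -0.01 to 0.40 over the other alternatives and from -0.36 to 0.89 with samples left out. The GTPase median of -0.03 ran from -0.27 to 0.09 and from -0.59 to 0.48. The contrast between them, 0.31, was 0.44 with the mean of all probes, in which the dim second probe of Iigp1 counts.

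Of 22 genes followed individually, 15 changed sign when some sample was left out: Isg15 ran from -0.48 to 1.60, Oas1a from -0.41 to 0.42, Oas3 from -0.60 to 1.64, Ifih1 from -0.0059 to 1.01, Trim25 from -0.066 to 0.80, Gbp3 from -0.32 to 0.75, Gbp6 from -1.22 to 0.79, Gbp7 from -0.57 to 0.82, Iigp1 from -0.071 to 0.088, Igtp from -0.70 to 0.96, Irgm2 from -0.86 to 0.70, Irf1 from -0.88 to 1.17, Irf7 from -0.60 to 0.92, Irf9 from -0.33 to 0.76 and Stat2 from -0.21 to 0.71. In the deposited table as it stands the difference was -0.26 for Oas1a, -0.032 for Gbp3, -0.079 for Gbp7, -0.22 for Iigp1, -0.11 for Igtp, -0.11 for Irf1, -0.083 for Irf7 and -0.051 for Irf9. Oas1a was -0.0055 with normexp and -0.12 with quantile normalization, Iigp1 -0.20 with the mean of its probes and Irgm2 0.050 with median scaling. The cause of these changes was not tested.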
